A study of Mus musculus with 6 samples.

Results

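A set of 9 imprinted genes and genes that host or neighbour an imprinted gene were followed across 3 clones of mouse B cells: Impact, Zrsr1, Commd1, Igf2r, Grb10, H13, Mcts2, Inpp5f and Trappc9. They were taken from the tables by their gene names, and each of the 9 was found among the 19402 genes with allelic counts and among the 37315 genes with an abundance. RNA came from 3 immortalised B-cell clones named Abl.2, Abl.3 and Abl.4, from F1 hybrids of 129S1/SvImJ and CAST/EiJ mice. The labels give the sex as female for Abl.2 and for Abl.4, and as male for Abl.3. Every library is a control: cells were kept in medium with 1% DMSO, a solvent, and live cells were taken on day 2. Each line is a single clone with 2 libraries. By their labels these repeat the library preparation, so the p-values below measure the spread between library preparations and not between independent cultures or mice. The labels give a single cross, so the parent of origin of an allele and its strain cannot be told apart.

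Genomic imprinting is the reading of a gene from the copy inherited from one parent, for many genes set by DNA methylation that differs between egg and sperm. In mice several imprinted genes are retrogenes, copies of a messenger RNA inserted into an intron of a host gene, and the methylated region then lies at the start of the inserted copy. Imprinting of some genes holds in most tissues, and that of others is known mainly from brain or placenta.

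The measure used throughout is the maternal share, the maternal counts of a gene divided by its maternal and paternal counts together, in libraries with at least 20 such counts. A share of 0 is paternal expression alone, 1 is maternal expression alone, and 0.5 is equal reading. Allelic counts came to between 18362319 and 26881211 per library. Of the 54 gene and library combinations, 43 reached 20 counts, and 5 of the 9 genes reached them in every library. Abundance is given as TPM, which corrects for gene length and library size. TPM keep no depth, so the depth behind those values is unknown. The 10 B-lineage markers were each above 1 TPM on average, with a summed level of 12618 to 13977 TPM per library. The T-cell (0 of 6), erythroid (0 of 4) and stromal (0 of 4) markers were below 1 TPM, and Cd3g, Cd4 and Trbc1 were listed at 0. Of the 5 myeloid markers, Lyz2 and Itgam were above 1 TPM, and the summed myeloid level was 159 to 193 TPM in Abl.2, 75.0 to 97.2 in Abl.3 and 77.9 to 89.4 in Abl.4. The myeloid sums thus moved with Abl.2, and their part in the differences between Abl.2 and the other clones was not tested.

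Allelic imbalance within a clone and allelic differences between clones were tested on the counts with edgeR's quasi-likelihood test and Benjamini-Hochberg adjustment over the autosomal and X genes covered in the lines compared, with a threshold of 0.05. Imbalance was common in these clones. It was called for 49.1% of the genes tested in Abl.2, and for 4 of the 5 imprinted or host genes that could be tested there. In Abl.3 the background was 45.2% and the count 5 of 7, and in Abl.4 the background was 40% and the count 5 of 8. A call alone therefore says little about these genes, and the size of the share carries the description.

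**Figure D1:**
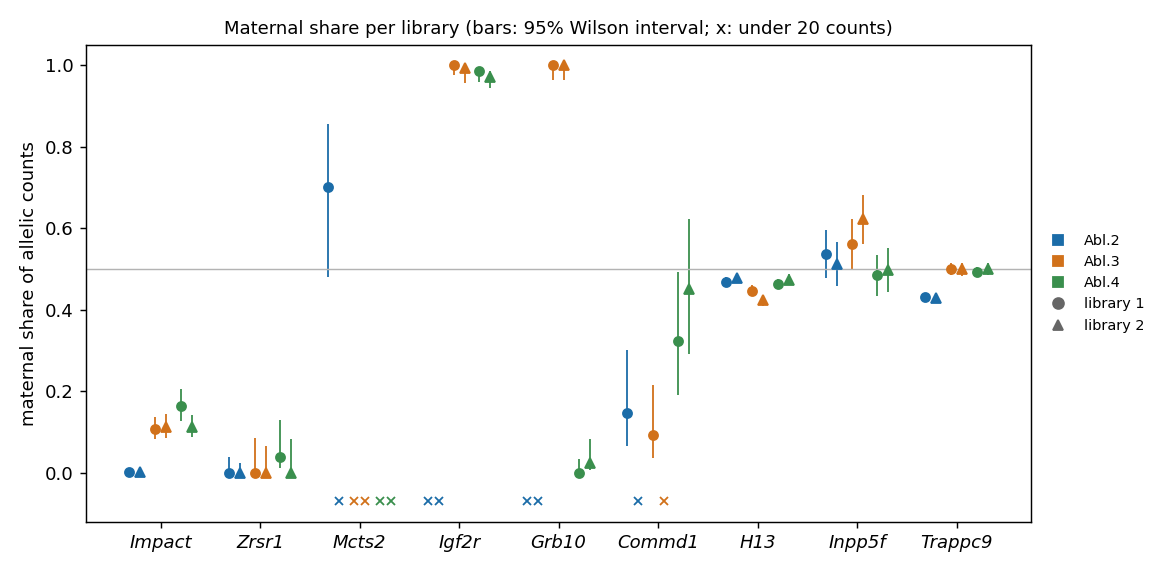
Maternal share of allelic counts (vertical axis, 0 to 1) for each gene and library, coloured by clone, with circles for library 1, triangles for library 2 and bars for 95% Wilson intervals. Crosses under the axis mark libraries with fewer than 20 counts. Impact and Zrsr1 lie near 0, Igf2r near 1, Grb10 at 1 in Abl.3 and near 0 in Abl.4, and H13, Inpp5f and Trappc9 around 0.5.

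Impact, Zrsr1 and Mcts2 are known as genes read from the paternal copy. Impact (ENSMUSG00000024423, GRCm38 chromosome 18, 12955852 to 12992950, plus strand) encodes a protein that limits activation of the amino-acid sensor kinase GCN2. In Abl.2 Impact had 1 maternal and 555 paternal counts in one library and 1 and 763 in the other. In Abl.3 it had 53 and 442, then 49 and 391. In Abl.4 it had 58 and 299, then 56 and 446. The maternal copy was thus close to silent in Abl.2 and read at a low level in Abl.3 and Abl.4, and the libraries of Abl.2 did not overlap with the other 4. Mean shares (± SD, n = 2) were 0.0016 ± 0.00035, 0.109 ± 0.0030 and 0.137 ± 0.036 for Abl.2, Abl.3 and Abl.4. The edgeR quasi-likelihood test called the paternal excess in each clone, with adjusted p-values of 2.47e-09, 5.27e-07 and 1.39e-06 for Abl.2, Abl.3 and Abl.4.

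The allele ratio of Impact differed between Abl.2 and the other 2 clones. Between pairs of clones, an allelic difference was called for 28.2% of genes tested for Abl.2 against Abl.3, 22.2% for Abl.2 against Abl.4 and 16.9% for Abl.3 against Abl.4. Among the imprinted and host genes the counts were 2 of 5, 2 of 5 and 1 of 7. For Impact the log2 maternal to paternal ratio in Abl.2 was lower by a difference of -6.14 (SE 0.52) against Abl.3 and -6.48 (SE 0.51) against Abl.4. The adjusted p-values by edgeR's quasi-likelihood test were 3.55e-06 and 2.29e-06, and over the alternative settings they ranged from 3.51e-08 to 0.000147 and from 6.14e-09 to 0.000104. These ratios rest on 2 maternal counts in all in Abl.2, so their size is imprecise. In the authors' deposited table the maternal fraction of Impact was 0 (limits 0 to 0.03) in Abl.2. It was 0.11 (0.03 to 0.22) in Abl.3 and 0.13 (0.03 to 0.27) in Abl.4, so the authors' limits meet at 0.03. Abl.3 and Abl.4 differed by -0.34 (SE 0.28), which did not pass the test (adjusted p = 0.512, edgeR quasi-likelihood test).

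The change of share in Impact came without a called change of total abundance. Its TPM were 6.14 and 6.49 in Abl.2, 5.27 and 5.92 in Abl.3, and 4.92 and 6.49 in Abl.4. The range of Abl.4 overlapped those of Abl.2 and Abl.3, which did not overlap each other. Multiplying TPM by the share of each allele gives 0.0098 ± 0.0018, 0.612 ± 0.067 and 0.762 ± 0.053 TPM from the maternal copy in Abl.2, Abl.3 and Abl.4 (SD, n = 2). The paternal copy gave 6.31 ± 0.249, 4.98 ± 0.392 and 4.94 ± 1.16 TPM in the same order. This product assumes that reads over SNPs stand for all reads of the gene. In bulk RNA, fewer cells that read the maternal copy and less maternal RNA per cell cannot be told apart.

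**Figure D2:**
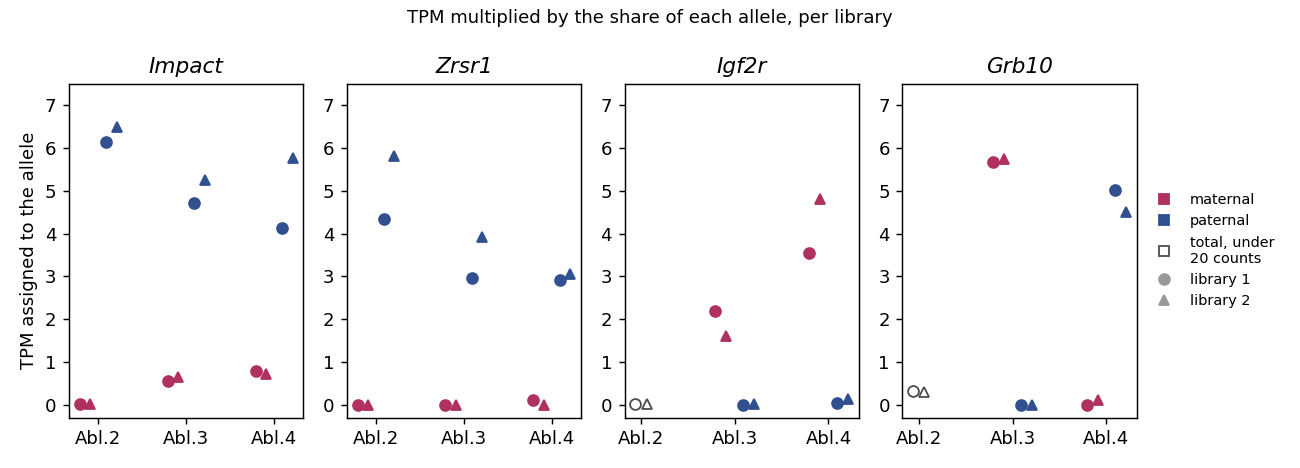
TPM assigned to each allele (TPM multiplied by the allele's share, vertical axis, linear from 0) per library in the 3 clones for Impact, Zrsr1, Igf2r and Grb10. Red is maternal, blue paternal, and open symbols are the total TPM where a library had fewer than 20 counts. Igf2r is maternal in Abl.3 and Abl.4, and Grb10 is maternal in Abl.3 and paternal in Abl.4, at totals of 4.61 to 5.74 TPM.

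Zrsr1 (ENSMUSG00000044068, GRCm38 chromosome 11, 22972005 to 22976496, plus strand) encodes a relative of the small U2AF splicing factor subunit and is a retrogene of X-linked Zrsr2. It was read from the paternal copy in each clone. Abl.2 had 0 maternal counts of 97 and 0 of 159, which allow a maternal share of up to 3.09% and 1.89% (3 counts of the total). Abl.3 had 0 of 41 and 0 of 54, which allow up to 7.32% and 5.56%. Abl.4 had 2 of 52, a share of 0.0385 (95% Wilson interval 0.0106 to 0.130), and 0 of 43, which allows up to 6.98%. Intervals and limits of this kind cover counting error alone, because the reads carry no molecular identifiers and several can stem from one molecule. Set against a floor of 3 counts over both libraries of a clone, the paternal copy was at least 85.3-fold higher in Abl.2 and at least 31.7-fold higher in Abl.3. These folds also cover counting error alone. In the authors' deposited table the maternal fraction of Zrsr1 was 0 (limits 0 to 0.14) in Abl.2 and 0 (0 to 0.35) in Abl.3. In Abl.4 it was 0.02 (0 to 0.45). The authors' limits thus allow more maternal reading, and smaller folds, than the counting bounds above. The adjusted p-values of the imbalance (edgeR quasi-likelihood test) were 8.36e-05, 0.000543 and 0.00113 for Abl.2, Abl.3 and Abl.4. No allelic difference between clones was called for Zrsr1, and the maternal counts are too few to compare the clones at this depth.

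Zrsr2, the X-linked relative, was read almost wholly from one copy in the female clones. Abl.3 is labelled male, so its one X is the maternal one and its share is set by sex. The mean shares of Zrsr2 (± SD, n = 2) were 0.0023 ± 0.0025, 0.999 ± 0.00038 and 0.0021 ± 0.0022 for Abl.2, Abl.3 and Abl.4, at 21.7 to 41.9 TPM. Over 1090 of the 4492 bases of the Zrsr1 transcript (24.3%) an alignment to the Zrsr2 transcript was found, at 80.4% identity.

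Mcts2 (ENSMUSG00000042814, GRCm38 chromosome 2, 152687035 to 152687946, plus strand) is a retrogene of X-linked Mcts1, whose product acts in restarting translation. Its counts were too few for a share in 5 of the 6 libraries. Maternal and paternal counts were 14 and 6, then 9 and 7 in Abl.2; 7 and 1, then 7 and 3 in Abl.3; and 16 and 0, then 6 and 9 in Abl.4. The maternal count was the larger in 5 of the 6 libraries, against the paternal reading for which the gene is known. With a minimum of 10 counts Mcts2 could be tested in Abl.2 and Abl.4, and no imbalance was called. The log2 ratio was 0.79 (SE 1.20, adjusted p = 0.639) in Abl.2 and 1.44 (SE 1.36, adjusted p = 0.450) in Abl.4, by edgeR's quasi-likelihood test. The library with 20 counts had a share of 0.70 with an interval of 0.481 to 0.855, which includes equal reading. With counts of both libraries pooled, the share was 0.639 (interval 0.476 to 0.775) in Abl.2 and 0.710 (0.534 to 0.839) in Abl.4. The pooled interval of Abl.4 lies above equal reading, but the libraries of that clone leaned to opposite alleles. Abundance was also low, from 1.25 to 3.44 TPM. Mcts1 stood at 52.6 to 79.1 TPM with no allelic counts in the tables, and 671 of the 912 bases of the Mcts2 transcript (73.6%) aligned to it at 84.0% identity. Whether reads were shared between the copies was not tested, and the Mcts2 values are uncertain.

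Igf2r and Grb10 are known as genes read from the maternal copy, the latter with a paternal exception in neurons, where a different start is used. Igf2r (ENSMUSG00000023830, GRCm38 chromosome 17, 12682406 to 12769664, minus strand) encodes the receptor that takes the growth factor IGF2 to the lysosome for breakdown. It was close to absent in Abl.2, at 0.01 TPM in both libraries and with a single count in all. In Abl.3 it had 146 maternal and 0 paternal counts, then 121 and 1. In Abl.4 it had 203 and 3, then 270 and 8. The maternal copy was thus the one read in both clones that expressed the gene. Mean shares were 0.996 ± 0.0058 for Abl.3 and 0.978 ± 0.010 for Abl.4 (SD, n = 2; adjusted p = 1.33e-05 and 1.39e-05 by edgeR's quasi-likelihood test against equal counts). The shares of the 2 clones did not overlap, but their difference was not called (adjusted p = 0.256, edgeR quasi-likelihood test).

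Airn, the paternal noncoding RNA that runs antisense across Igf2r, was listed at 0 in the 4 libraries of Abl.2 and Abl.3 and stood at 2.22 and 3.29 TPM in those of Abl.4. Igf2r in Abl.3 was maternal in libraries where Airn was listed at 0. Because the depth behind the TPM is unknown, a listed 0 does not show that Airn was absent. A link between Airn and the allele of Igf2r was not tested. Airn is not among the genes with allelic counts, so its allele could not be read, and the annotated exons of Airn and Igf2r share no bases.

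Grb10 (ENSMUSG00000020176, GRCm38 chromosome 11, 11930508 to 12038683, minus strand) encodes an adaptor that binds the insulin and IGF1 receptors and restrains their signalling. It was the gene whose clones disagreed outright. Abl.3 had 98 maternal and 0 paternal counts, then 100 and 0, which allow a paternal share of up to 3.06% and 3%. Abl.4 had 0 maternal and 107 paternal counts, then 2 and 83. Abl.2 had 0 counts in one library and 6 of each allele in the other, which is too few for a share. The share was 1 in both libraries of Abl.3 and averaged 0.0118 ± 0.0166 over those of Abl.4 (SD, n = 2). The maternal copy was at least 66-fold higher in Abl.3 against the floor of 3 counts, and pooled over the libraries of Abl.4 the share was 0.0104 (95% Wilson interval 0.0029 to 0.0372). The difference between the clones had an adjusted p of 8.53e-05 by edgeR's quasi-likelihood test, and over the alternative settings that kept Grb10 in the test it ranged from 5.01e-12 to 0.00134. In the authors' deposited table the maternal fraction of Grb10 was 1 (limits 0.81 to 1) in Abl.3 and 0.01 (limits 0 to 0.25) in Abl.4.

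The total level of Grb10 was not called different between the clones that read opposite copies, and both stood far above Abl.2. TPM were 5.66 and 5.74 in Abl.3, 5.01 and 4.61 in Abl.4, and 0.32 and 0.29 in Abl.2. Assigned to alleles, Abl.3 had 5.70 ± 0.057 TPM from the maternal copy and Abl.4 had 4.76 ± 0.360 TPM from the paternal copy (SD, n = 2). On the log2(TPM + 1) scale the difference between Abl.3 and Abl.4 was 0.21, with an adjusted p of 0.302 by limma. After quantile normalisation it was 0.54 and passed the test (adjusted p = 0.0396, limma).

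The 250 bases before the annotated starts are shown for Grb10, whose clones disagree and which has more than one start, and for Igf2r, which was maternal in both clones that expressed it. Sequences are from RefSeq (GRCm38.p6), and capitals mark each CG, the pair of bases that carries DNA methylation. Of 32851 promoter windows of this length, 92.1% hold at least 1 CG, and the median holds 6. The tables give counts per gene and do not tell which start was used.
Grb10, chr11:12037421-12037670, minus strand: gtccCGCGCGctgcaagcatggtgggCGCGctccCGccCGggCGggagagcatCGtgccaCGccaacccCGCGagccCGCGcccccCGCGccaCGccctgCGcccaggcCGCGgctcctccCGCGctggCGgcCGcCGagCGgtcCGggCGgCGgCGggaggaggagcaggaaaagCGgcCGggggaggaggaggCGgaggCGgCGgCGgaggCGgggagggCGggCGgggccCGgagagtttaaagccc
Grb10, chr11:12027972-12028221, minus strand: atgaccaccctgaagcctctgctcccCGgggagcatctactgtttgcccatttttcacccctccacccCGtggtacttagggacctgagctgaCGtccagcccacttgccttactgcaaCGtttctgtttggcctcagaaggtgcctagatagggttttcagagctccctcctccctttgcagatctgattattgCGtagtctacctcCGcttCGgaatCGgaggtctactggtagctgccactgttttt
Igf2r, chr17:12769707-12769956, minus strand: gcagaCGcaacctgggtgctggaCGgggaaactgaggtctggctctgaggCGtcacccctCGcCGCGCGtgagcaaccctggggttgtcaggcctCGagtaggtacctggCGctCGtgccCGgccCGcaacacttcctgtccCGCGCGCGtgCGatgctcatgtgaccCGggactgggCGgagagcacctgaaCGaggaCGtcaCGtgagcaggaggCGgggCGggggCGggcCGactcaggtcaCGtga

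The first Grb10 window holds 40 CG, a number that 1.31% of promoter windows reach. The other Grb10 window holds 8, a number that 43.0% of windows reach. The Igf2r window holds 27, reached by 8.56%. Methylation was not measured in these libraries, and a CG count is a description of the sequence.

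Commd1 and H13 host the retrogenes Zrsr1 and Mcts2. Commd1 (ENSMUSG00000051355, GRCm38 chromosome 11, 22896136 to 22982382, minus strand) encodes a regulator of copper handling and of NF-kB. H13 (ENSMUSG00000019188, GRCm38 chromosome 2, 152669461 to 152708670, plus strand) encodes signal peptide peptidase, a protease of the endoplasmic reticulum. Zrsr1 lies inside Commd1 on the opposite strand and 412 bases of its exons overlap exons of Commd1. Mcts2 lies inside H13 on the same strand and shares no exon bases with it. Whether counting used strand is not given in the sources used here, so in the shared exons reads of Zrsr1 and Commd1 cannot be told apart. Gm28048, annotated on the same strand as Commd1, also shares 294 exon bases with it. Its mean shares were 0.285, 0.189 and 0.130 for Abl.2, Abl.3 and Abl.4, on far more counts than Commd1 had. How this overlap bears on the counts of Commd1 was not tested. The stretches directly before the start of each host and each inserted gene are shown so that hosts and inserts can be compared in CG content, again from RefSeq with each CG in capitals. RefSeq has a further Commd1 start inside the span of Zrsr1, whose window holds 13 CG and is not shown because it is transcribed throughout. For Commd1 and Mcts2 the print ends before the first transcribed base of any annotated transcript.
Zrsr1 (inserted), chr11:22971755-22972004, plus strand: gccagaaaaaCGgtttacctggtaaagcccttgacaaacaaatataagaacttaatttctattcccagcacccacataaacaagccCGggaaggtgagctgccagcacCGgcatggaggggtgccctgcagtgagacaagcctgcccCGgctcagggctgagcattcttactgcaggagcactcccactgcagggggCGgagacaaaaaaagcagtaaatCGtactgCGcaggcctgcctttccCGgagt
Commd1 (host), chr11:22982383-22982534, minus strand: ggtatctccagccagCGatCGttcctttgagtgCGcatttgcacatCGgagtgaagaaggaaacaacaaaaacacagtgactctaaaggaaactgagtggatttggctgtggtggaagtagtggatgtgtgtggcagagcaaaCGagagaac
Mcts2 (inserted), chr2:152686898-152687034, plus strand: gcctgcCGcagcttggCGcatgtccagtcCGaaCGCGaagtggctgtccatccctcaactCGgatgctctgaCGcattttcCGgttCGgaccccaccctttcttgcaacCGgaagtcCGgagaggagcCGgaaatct
H13 (host), chr2:152669211-152669460, plus strand: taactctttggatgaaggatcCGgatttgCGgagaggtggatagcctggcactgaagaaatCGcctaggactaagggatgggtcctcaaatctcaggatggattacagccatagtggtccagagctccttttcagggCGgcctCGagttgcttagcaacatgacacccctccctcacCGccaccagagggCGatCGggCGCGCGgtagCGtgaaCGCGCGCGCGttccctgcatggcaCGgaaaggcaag

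The printed stretches hold 8 CG for Zrsr1 and 18 for H13 over 250 bases, 5 for Commd1 over 152 bases and 12 for Mcts2 over 137 bases. Counted over full windows of 250 bases, which for Commd1 and Mcts2 run on into 98 and 113 transcribed bases that are not shown, Zrsr1 has 8 CG, Commd1 14, Mcts2 20 and H13 18. Of promoter windows, 43.0%, 29.4%, 17.9% and 21.7% reach these numbers.

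Commd1 was strongly expressed but thinly covered for alleles. Its TPM were 179 and 181 in Abl.2, 191 and 234 in Abl.3, and 194 and 226 in Abl.4. It had 28.7 allelic counts per library on average. Among 1205 genes at 100 to 300 TPM the median was 3416 counts, and 2.66% of them had fewer than Commd1. Maternal and paternal counts were 5 and 29, then 11 and 3 in Abl.2; 4 and 39, then 0 and 16 in Abl.3; and 11 and 23, then 14 and 17 in Abl.4. The 2 libraries of Abl.2 leaned to opposite alleles, so no share of Commd1 can be given for that clone with confidence. In the libraries with 20 counts the share was 0.147 (95% Wilson interval 0.0645 to 0.301) in Abl.2, 0.0930 (0.0368 to 0.216) in Abl.3, and 0.324 (0.191 to 0.492) and 0.452 (0.292 to 0.622) in Abl.4. Both libraries of Abl.3 leaned to the paternal copy, with a pooled share of 0.0678 (interval 0.0267 to 0.162). Abl.4, the clone in which it could be tested at 20 counts, showed no called imbalance (adjusted p = 0.612, edgeR quasi-likelihood test). With a minimum of 10 counts Commd1 entered the tests of the other clones. The paternal lean in Abl.3 was then called, with a log2 ratio of -3.86 (SE 1.21, adjusted p = 0.0237, edgeR), while that of Abl.2 was not (adjusted p = 0.688), and no difference between clones was called (adjusted p = 0.203 for Abl.2 against Abl.3, 0.998 for Abl.2 against Abl.4 and 0.227 for Abl.3 against Abl.4, edgeR).

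Within a library, the share of Commd1 exceeded that of Zrsr1 wherever both had 20 counts. The difference of share was 0.147 in library 1 of Abl.2, 0.0930 in library 1 of Abl.3, and 0.285 and 0.452 in the libraries of Abl.4. The host was 31.2 to 74.2 times as abundant as Zrsr1 in TPM. These differences were not tested, and with Zrsr1 at or near 0 they equal the share of Commd1 or nearly so. With counts of both libraries pooled, the difference was 0.333 in Abl.2, where the library left out for low coverage leaned the other way, and 0.0678 in Abl.3, where the library left out had 0 maternal counts for both genes.

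H13 was read from both copies in each clone. Its counts per library were 5323 to 7973, its abundance 159 to 208 TPM. The share was 0.468 and 0.477 in Abl.2, 0.446 and 0.423 in Abl.3, and 0.463 and 0.474 in Abl.4, so the paternal copy was slightly higher in 6 of 6 libraries. The log2 ratio was -0.16 (SE 0.053), -0.38 (SE 0.054) and -0.18 (SE 0.054) in Abl.2, Abl.3 and Abl.4. It passed edgeR's quasi-likelihood test in each (adjusted p = 0.0312, 0.000234 and 0.020). In the authors' deposited table the maternal fraction of H13 was 0.47 (limits 0.44 to 0.51) in Abl.2 and 0.43 (0.39 to 0.48) in Abl.3. In Abl.4 it was 0.47 (0.42 to 0.51), so the authors' limits include equal reading in Abl.2 and Abl.4. The call in Abl.2 ended without either of its libraries (adjusted p = 0.273 without library 1 and 0.124 without library 2) and that in Abl.4 ended without its library 1 (adjusted p = 0.159, same edgeR test). Between clones no difference was called with these settings. For Abl.2 against Abl.3 the log2 difference was 0.22 with an adjusted p of 0.0537 (edgeR), close to the threshold. It passed with DESeq2 (adjusted p = 0.0350) and without library 1 of Abl.3 (0.0430) or library 1 or 2 of Abl.4 (0.0442 and 0.0414, edgeR). With library sizes per allele it was 0.12 (adjusted p = 0.320, edgeR), and the ratio in Abl.2 was then -0.28. In the one library where both genes of the pair were covered, library 1 of Abl.2, the share of H13 lay below that of Mcts2 by a difference of -0.232. Its interval of 0.456 to 0.480 ended just under that of Mcts2, which rests on 20 counts. H13 was 55.9 to 130 times as abundant as Mcts2.

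Herc3 and Blcap, other host genes beside an imprinted insert, had no called imbalance in any clone (edgeR). Herc3, host of Nap1l5, had shares of 0.468 to 0.533 over the 6 libraries, with Nap1l5 listed at 0. Blcap, host of Nnat, varied more, from 0.373 to 0.598 on 59 to 127 counts, with no allelic counts for Nnat.

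Inpp5f and Trappc9 are imprinted in brain for a transcript or to a degree. Inpp5f (ENSMUSG00000042105, GRCm38 chromosome 7, 128611328 to 128696425, plus strand) encodes a phosphatase of phosphoinositide lipids. Its share was 0.537 and 0.512 in Abl.2, 0.561 and 0.622 in Abl.3, and 0.484 and 0.497 in Abl.4, on 230 to 374 counts. No imbalance was called, with adjusted p-values of 0.597, 0.0517 and 0.847 by edgeR's quasi-likelihood test, and the ranges of Abl.3 and Abl.4 did not overlap although their difference was not called either (adjusted p = 0.202, edgeR). Its abundance did differ. TPM were 6.23 and 6.87 in Abl.2, 5.48 and 5.88 in Abl.3, and 10.9 in both libraries of Abl.4. Both copies were higher in Abl.4: the maternal level was 5.34 ± 0.097 TPM in Abl.4 against 3.43 ± 0.124 in Abl.2 and 3.37 ± 0.413 in Abl.3, and the paternal level 5.55 ± 0.104 against 3.12 ± 0.328 and 2.31 ± 0.130 (SD, n = 2).

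Trappc9 (ENSMUSG00000047921, GRCm38 chromosome 15, 72589620 to 73061204, minus strand) encodes a subunit of the TRAPP II complex of vesicle traffic and hosts the noncoding Peg13. It was at or near equal reading in Abl.3 and Abl.4 and leaned to the paternal copy in Abl.2. Maternal and paternal counts were 3525 and 4665, then 3898 and 5185 in Abl.2; 2144 and 2143, then 1977 and 1989 in Abl.3; and 3017 and 3123, then 2439 and 2440 in Abl.4. The shares were 0.430 and 0.429, 0.50 and 0.498, and 0.491 and 0.50, and Abl.2 did not overlap with the others. In the authors' deposited table the maternal fraction of Trappc9 was 0.43 (limits 0.4 to 0.46) in Abl.2. It was 0.5 (0.45 to 0.55) in Abl.3 and 0.5 (0.45 to 0.54) in Abl.4, so the authors' limits overlap. The log2 ratio in Abl.2 was -0.41 (SE 0.048; adjusted p = 3.84e-05, edgeR quasi-likelihood test). The difference of log2 ratio was -0.40 (SE 0.070) against Abl.3 and -0.38 (SE 0.069) against Abl.4, with adjusted p-values of 0.00106 and 0.00174 (edgeR), which ranged from 9.11e-08 to 0.0143 and from 2.98e-07 to 0.0225 over the alternative settings. The abundance of Trappc9 was 81.2 and 75.4 TPM in Abl.2, 46.3 and 45.1 in Abl.3, and 68.6 and 57.4 in Abl.4, and the difference of Abl.2 from Abl.4 was not called (0.31 on the log2 scale, adjusted p = 0.0641, limma). It passed with the replicate block (adjusted p = 0.0241, limma), with summed allelic counts (0.0381, edgeR) and without library 1 of Abl.4 (0.0267, limma). Against Abl.3, both copies were higher in Abl.2, the maternal at 33.6 ± 1.85 against 22.8 ± 0.469 TPM and the paternal at 44.6 ± 2.29 against 22.9 ± 0.365 (SD, n = 2).

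Total abundance was compared between clones with limma on log2(TPM + 1), a scale that understates the change of low genes, over the 11003 genes that average 1 TPM or more, among them each of the 9. A difference was called for 39.8% of genes for Abl.2 against Abl.3, 33.5% for Abl.2 against Abl.4 and 38.1% for Abl.3 against Abl.4. The imprinted and host genes had 3 of 9 called in each, a share near the background. Against Abl.3, Abl.2 had lower Igf2r (-1.52, SE 0.21, adjusted p = 0.00206 by limma) and Grb10 (-2.36, SE 0.15, 7.94e-05) and higher Trappc9 (0.76, SE 0.11, 0.00224). Against Abl.4, it had lower Igf2r (-2.37, SE 0.21, adjusted p = 0.000349 by limma), Grb10 (-2.15, SE 0.15, 0.000121) and Inpp5f (-0.66, SE 0.12, 0.00754). With a pseudocount of 0.1 the differences of Igf2r were -4.17 against Abl.3 and -5.30 against Abl.4, and those of Grb10 -3.84 and -3.60, so the size of a fold for these low genes depends on the pseudocount.

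Abl.3 had less Igf2r (-0.86, SE 0.21, adjusted p = 0.0194 by limma), Inpp5f (-0.83, SE 0.12, 0.00303) and Trappc9 (-0.45, SE 0.11, 0.0178) than Abl.4. The median difference over all genes was 0.10, -0.03 and -0.15 for the 3 comparisons in the order above. Relative to that shift of -0.15, the differences of Abl.3 from Abl.4 are smaller. After quantile normalisation the calls of Igf2r and Trappc9 in that comparison ended (adjusted p = 0.0757 and 0.0676, limma). That of Igf2r ended with a pseudocount of 0.1 (adjusted p = 0.0518, limma), although its difference was larger on that scale. The replicate block added H13 (adjusted p = 0.0199, limma). The calls of Igf2r and Trappc9 also ended without library 2 of Abl.3 (adjusted p = 0.103 and 0.0905), Igf2r without library 2 of Abl.4 (0.0702), and Trappc9 without library 1 of Abl.3 (0.0774) or of Abl.4 (0.0520, limma). The call of Inpp5f for Abl.2 against Abl.4 ended without library 1 of Abl.2 (adjusted p = 0.0595, limma). Impact, Commd1, H13, Mcts2 and Zrsr1 had no called difference of abundance with these settings. For Zrsr1, higher in Abl.2 by 0.45 against Abl.3 and 0.58 against Abl.4, the call depended on the setting. With summed allelic counts the differences were 1.02 and 1.10 and passed (adjusted p = 0.0215 and 0.0172, edgeR quasi-likelihood test), and with quantile normalisation the one against Abl.4 was 0.77 and passed (adjusted p = 0.0225, limma).

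**Figure D3:**
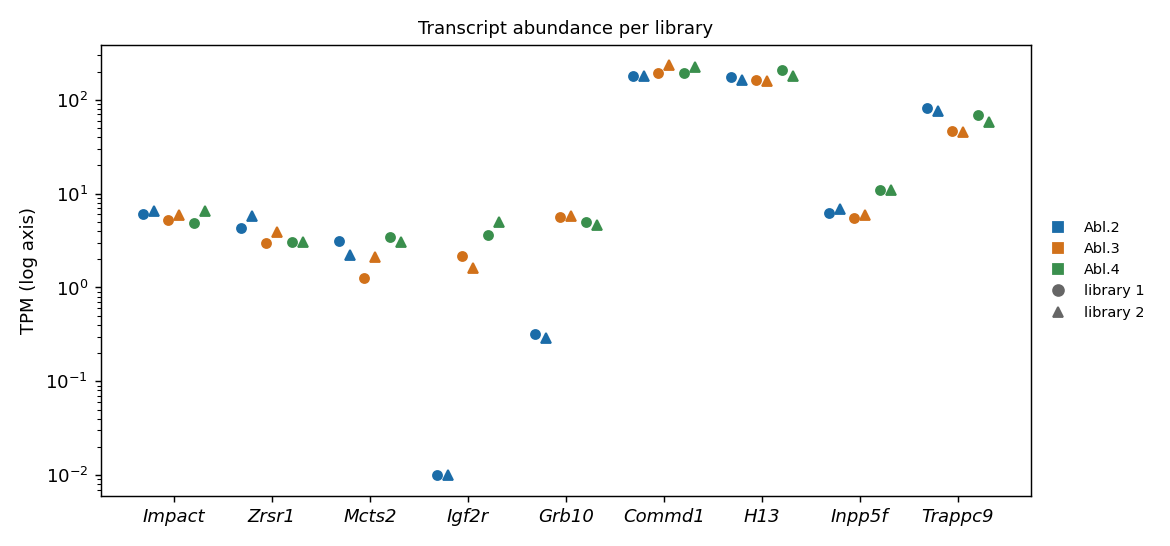
Transcript abundance in TPM (vertical axis, log scale) of the 9 genes in each library, coloured by clone, with circles for library 1 and triangles for library 2. Igf2r at 0.01 TPM and Grb10 at 0.29 and 0.32 TPM in Abl.2 lie far under the other clones, and Commd1 and H13 lie between 159 and 234 TPM.

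A wider list of 72 genes described as imprinted in mice, which includes the 9, was set beside them. Of these, 63 were in the allele table and 18, 19 and 20 were covered in Abl.2, Abl.3 and Abl.4. Imbalance was called for 9, 10 and 10, to the maternal side in 2, 5 and 4 and to the paternal side in 7, 5 and 6. Over all genes tested, calls to the maternal side made up 24.7%, 22.7% and 19.2%, and calls to the paternal side 24.4%, 22.5% and 20.8%. A share of at most 0.1 or at least 0.9 was found for 4, 4 and 3 of them, beside 15.4%, 8.49% and 8.07% of all genes tested. The median size of the log2 allele ratio was 0.22, 0.41 and 0.34, against 0.36, 0.33 and 0.30 over all genes tested. Of the 66 listed genes with an abundance, 43 averaged under 1 TPM.

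Outside the 9, a share that extreme occurred for 2 genes of the list. Ampd3, an AMP deaminase imprinted in placenta, had mean shares of 0.0360 ± 0.0169, 0.0166 ± 0.0034 and 0.856 ± 0.047 for Abl.2, Abl.3 and Abl.4 (SD, n = 2; adjusted p = 1.85e-06, 2.80e-06 and 1.80e-05, edgeR quasi-likelihood test). Mkrn3, a paternally read ring-finger gene, had 0 maternal counts in both libraries of Abl.2, each with at least 51 counts (adjusted p = 0.00265, edgeR). Tssc4 and Tspan32, neighbours in the Kcnq1 cluster, leaned to the maternal copy in each clone, with shares of 0.611, 0.647 and 0.679 for Tssc4 and 0.620, 0.613 and 0.562 for Tspan32 in Abl.2, Abl.3 and Abl.4. Other covered genes of that cluster did not share this lean in every clone. Nap1l4 was at 0.518, 0.512 and 0.50 with no call, and Osbpl5 was at 0.512 and 0.491 with no call in Abl.2 and Abl.4, and at 0.857 ± 0.202 (SD, n = 2) in Abl.3 on as few as 21 counts (adjusted p = 0.0116, edgeR). The remaining calls of listed genes outside the 9 were to the paternal side: Gab1 at 0.397 in Abl.2 and 0.420 in Abl.4 (adjusted p = 0.00184 and 0.010), Copg2 at 0.439 in Abl.3 (0.0186) and Atp10a at 0.436 in Abl.4 (0.00422, edgeR).

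The nearest genes with 20 counts in each library, 3 on each side of a gene, were then described. Around Igf2r the mean shares of these neighbours ran from 0.363 to 0.627 over the clones, beside 0.978 and more for Igf2r itself. Around H13 and Inpp5f, no neighbour lay outside 0.3 to 0.7. Around Impact they ran from 0.280 to 0.636, and Cabyr in Abl.3 (0.280, on as few as 23 counts) was the one outside that range. Beside Zrsr1 and Commd1, B3gnt2 had more paternal than maternal counts in 6 of 6 libraries, with both copies read and mean shares of 0.285, 0.189 and 0.130 for Abl.2, Abl.3 and Abl.4. Gm28048 held nearly the same counts as B3gnt2 (2620 and 2626 in library 1 of Abl.2) and shares 2449 exon bases with it, so it is no separate observation. Cct4 on the other side of Zrsr1 was at 0.489, 0.491 and 0.497.

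**Figure D4:**
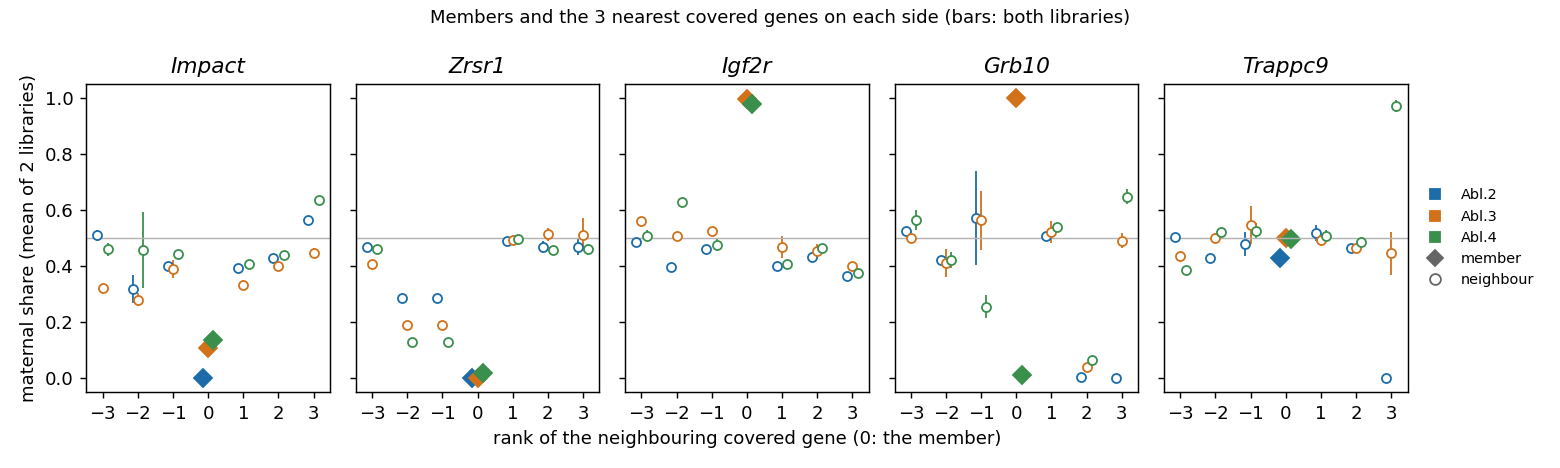
Mean maternal share (vertical axis) of 5 of the genes (diamonds) and of the 3 nearest covered genes on each side (open circles, horizontal axis by rank), coloured by clone, with bars spanning both libraries. Impact, Zrsr1, Igf2r and Grb10 lie apart from most neighbours, while Ptk2 beside Trappc9 runs from 0.0019 in Abl.2 to 0.971 in Abl.4.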

How the data were processed

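RNA-seq libraries from 3 B-cell clones, 2 per clone, were analysed. Per the labels' protocols, libraries were made with the SMART-seq v4 kit. The allele table holds whole-number counts of the maternal and paternal allele per gene, which per the file headers the authors took at SNPs. Abundance is deposited as TPM, for which the header names DESeq2. A further deposited table holds the authors' maternal fraction per clone with limits. Per the submitters' processing notes, tools include STAR 2.5.4a, SAMtools, GATK and DESeq2 and builds GRCm38, GRCh37 and mm10. Their roles, the SNP list and the strand setting are not given in the sources used here.

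In R 4.3.3, the quasi-likelihood test of edgeR 4.0.16 was run on the allelic counts. The model held 1 intercept for each library, an allele effect per clone and 1 library size for both alleles, on all 6 libraries in 1 fit. A gene entered a comparison with at least 20 counts in each library of its clones, and 2 Y genes were left out. For abundance, log2(TPM + 1) values went into limma 3.58.1, using lmFit and then eBayes with trend. P-values were adjusted by Benjamini-Hochberg over all genes tested. Single libraries have 95% Wilson intervals. The tests of a difference between clones were checked on simulated data in which 200 genes were changed in Abl.2 and none in Abl.3 and Abl.4. Most of the smaller changes put in were missed, so a difference that was not called can still exist. For the allelic tests the simulated spread between libraries was a chosen value and was not estimated from these data. The rate at which changes were missed there need not hold for the genes described here. The imbalance tests come from the same fit and were not simulated on their own. Alternatives were coverage minimums of 10 and 50, 20 counts in each library, DESeq2 1.42.0, library sizes per allele, a pseudocount of 0.1, no filter, quantile normalisation, summed allelic counts with TMM, a replicate block and leaving out each library.

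The genes, the imprinted list, the markers and the tests were chosen with earlier results of these data known. Besides the 9 genes, the text names listed imprinted genes covered in a clone, host and insert pairs, neighbours outside a share of 0.3 to 0.7, the X-linked relatives, and the 3 autosomal genes with the smallest root mean square difference of share from Grb10 and from Impact, more than 5 megabases away. Cct4 and Gm28048 were named after their values were seen.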

Additional observations from a re-analysis of the deposited data

Results flagged for a closer look

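Clones differed in the allele ratio of 3 genes when the difference itself was tested (edgeR, quasi-likelihood, Benjamini-Hochberg adjustment). For Impact the adjusted p was 3.55e-06 for Abl.2 against Abl.3 and 2.29e-06 for Abl.2 against Abl.4 (edgeR), and the maternal share was lower in both libraries of Abl.2. For Trappc9 it was 0.00106 and 0.00174 in the same comparisons (edgeR), and the maternal share was again lower in both libraries of Abl.2. For Grb10 it was 8.53e-05 between Abl.3 and Abl.4 (edgeR), with the copies exchanged. Each clone is a single clone, and a cause was not tested.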

How the results depend on the processing

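No called value of a single gene changed sign under the alternatives that were run. Of values that were not called, 17 did, and 0 of these passed a test after the change, by edgeR, DESeq2 or limma. Among them, the difference of abundance of Impact for Abl.2 against Abl.3 went from 0.15 to -0.02 with quantile normalisation, and the allelic difference of H13 for Abl.2 against Abl.4 from 0.03 to -0.11 with library sizes per allele. With 20 counts required in each of the 6 libraries, Igf2r, Grb10 and Commd1 left the tests, and of the 9 genes 3 were called in Abl.3, 3 in Abl.4 and 0 for Abl.3 against Abl.4 by edgeR, since fewer of the 9 were tested. Over all genes the calls were then 3926, 3472 and 1432. With counts pooled, the difference of Commd1 and Zrsr1 in Abl.2 was 0.333. Leaving out 1 library at a time, genes called for abundance ranged from 2529 to 4565 (4382 with every library) for Abl.2 against Abl.3, 2040 to 3269 (3682) for Abl.2 against Abl.4 and 2336 to 3659 (4194) for Abl.3 against Abl.4. Of the 9 genes, 1 to 3 were then called for Abl.3 against Abl.4. A lone library is assumed to vary like the other clones. Of single-gene values, 14 gained and 12 lost a call, 289 were called in both settings and 381 in neither.

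Replicate numbers are shared across clones. Deviations of same-numbered libraries correlated at -0.0062, -0.056 and 0.015 for the share, over 2 pairs each, so the numbers were not taken to pair the shares. For log2 TPM the correlations were 0.104, 0.187 and 0.161, positive in each comparison. A pairing of the abundance values is therefore possible, and the main tests of abundance did not include it. With the replicate block, allelic differences were called for 2413, 1933 and 1400 genes and abundance differences for 5213, 4608 and 5184, and 5 of the 9 genes differed in abundance between Abl.2 and Abl.4 instead of 3, with Zrsr1 and Trappc9 added (adjusted p = 0.0322 and 0.0241, limma).

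With library sizes per allele, the maternal side held 39.0% of calls in Abl.2 instead of 50.4%, and 43.9% instead of 54.2% and 43.6% instead of 57.1% of the differences of Abl.2 against Abl.3 and Abl.4. With quantile normalisation, higher abundance made up 51.4% instead of 65.0% of calls for Abl.2 against Abl.3 and 52.0% instead of 29.8% for Abl.3 against Abl.4. With summed allelic counts these were 52.4% and 46.7%. Low counts limit Mcts2, Commd1 and, in Abl.2, Grb10 and Igf2r.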

Other observations

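Some genes far from Grb10 and Impact had a like pattern of shares. Over the 4 libraries in which Grb10 was covered, the nearest of 8651 autosomal genes were Tsnax, A2ml1 and Zfp870, with root mean square differences of share of 0.0099, 0.0116 and 0.0118. Tsnax, on chromosome 8, had a mean share of 0.999 in Abl.3 and 0.0067 in Abl.4. Over 6 libraries, the nearest of 8462 genes to Impact were Pelo (0.0185), Gm49395 (0.0244), which overlaps Pelo, and Morc2a (0.0435). Pelo, on chromosome 13, had shares of 0.0021, 0.0835 and 0.139 in Abl.2, Abl.3 and Abl.4. These genes were picked for the likeness itself, over few libraries.

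Ptk2, which encodes focal adhesion kinase, had maternal shares of 0.0019, 0.445 and 0.971 for Abl.2, Abl.3 and Abl.4. The lowest coordinate of Ptk2 lies 615.5 kb from the lowest coordinate of Trappc9, a distance that includes the length of Trappc9. Plek, whose lowest coordinate lies 5040.7 kb from the lowest coordinate of Grb10, was at 0.0061, 0.0392 and 0.0656. Cnrip1, at 5121.1 kb by the same measure between lowest coordinates, was at 0.0014, 0.491 and 0.647 in the same order. Zpbp, on the other side of Grb10, was at 0.255 in Abl.4 on as few as 44 counts.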
